A study of Mus musculus with 16 samples.

Results

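The comparison set 3 arrays of mice expressing A-CREB, a dominant negative inhibitor of the transcription factor CREB, against 3 arrays of their control littermates, all of the hippocampus at 6 weeks of age. These 6 arrays were found by the group named in their titles and are 6 of the 16 arrays of the series. Per the labels, a replicate was not an animal but a pool, made of the hippocampi of 3 to 4 mice alike in age, sex and genotype. The A-CREB mice had the genotype TetO-A-CREB-95 C57BL6 F1/J and the littermates were wild type (WT), with the strain given as C57BL/6J and no dox (doxycycline) given while the mice were raised. TetO is the doxycycline-controlled promoter, and the labels name neither the transactivator that drives it nor the cells it acts in. All 3 A-CREB arrays carried this 1 genotype label, and no other A-CREB line was analysed here. The series also holds VP16-CREB mice, which carry a constitutively active form of CREB, with their own littermates. The 6 arrays of that cohort taken 3 weeks off dox, from mice of the same 6 weeks of age, served as the point of comparison. These were 3 pools of the genotype tetO-VP16-CREB C57BL/6J and 3 of WT littermates. Both received dox until 3 weeks before the tissue was taken, unlike the A-CREB cohort. The other 4 arrays of the series were 2 VP16-CREB pools and 2 littermate pools from mice of 3 weeks of age, 1 week off dox. They entered the estimate of the spread and the choice of probe sets tested.

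CREB binds the cAMP response element (CRE) in promoters and, once phosphorylated after synaptic activity or a rise in cAMP or calcium, recruits the coactivators CBP and p300. In hippocampal neurons it drives immediate early genes such as Fos and Nr4a1, neuropeptides such as prodynorphin and somatostatin, and growth factors such as Bdnf, and it is known for its part in neuronal survival and lasting memory. A-CREB joins an acidic stretch to the leucine zipper of CREB and forms dimers with CREB that cannot bind DNA.

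The arrays were Affymetrix Mouse Genome 430 2.0, and the values were linear MAS5 intensities scaled to a trimmed mean of 500 on every array, with medians of 75.0 to 89.7 in this cohort. Pearson correlations over the probe sets tested were 0.954 to 0.971 within the groups and 0.953 to 0.980 between them, and these ranges overlap. The leading principal component of the 6 arrays carried 36.1% of the variance and set the control pool 3 and the A-CREB pool 3 apart from the other 4. These 2 pools had 18S rRNA signals of 1083 and 2140 against 138 to 369.5 in the rest, and the A-CREB pool 3 had the highest ratio of 3' to 5' actin signal, 2.48 against 1.37 to 1.98. By Xist, the RNA of the inactive X chromosome, pool 1 of each group was male, with intensities of 34.5 and 63.4 against 3611 to 4402 in the others. The control pool 2 had a high Xist intensity of 3611 together with the Y-linked Eif2s3y at 86.5, against 0.609 to 23.7 in the pools of high Xist otherwise, which goes against a pool of 1 sex. Counts without these pools are given beside the results they touch.

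Differences are of log2(intensity + 10), which understates the change of dim probe sets, and are given as A-CREB minus control with the standard error (SE) of limma's fit over all 16 arrays. A probe set or gene was called at a Benjamini-Hochberg adjusted p under 0.05. No probe set was called among 27044 tested with limma (0.0%), and the smallest adjusted p was 0.080. At an unadjusted p under 0.05, limma gave 619 probe sets higher (2.29%) and 552 lower (2.04%) in A-CREB, which together made 4.33% of those tested. The difference was under 0.5 in size for 92.7% of the probe sets, and the median 95% interval reached 0.47 to either side. The median absolute difference between the groups was 0.15, below the median SD among the control pools (0.28) and among the A-CREB pools (0.26).

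As a group, the A-CREB pools differed at least 1.5-fold at 695 probe sets higher and 607 lower, and single pools strayed further from the control mean. The A-CREB pool 1 lay at least 1.5-fold from the mean of the controls at 11.99% of the probe sets, the pool 2 at 12.01% and the pool 3 at 18.9%. In all, 55 genes had all 3 A-CREB pools at least 1.5-fold above the control mean and 13 genes had all 3 that far below. Per gene, by its probe set of highest mean, the pools did not overlap for 501 of 12732 genes higher in A-CREB (3.93%) and 468 lower (3.68%). At an unadjusted p under 0.05 there were 264 genes higher (2.07%) and 239 lower (1.88%), and these 4 shares are the background for every gene list that follows. The lists and their members were chosen with earlier results of these data known, which limits that comparison. Leaving out 1 pool brought between 0 and 4 calls. Without the control pool 3 there were 4, which included Trat1 at 3.79 and Klf3 at -1.78, and without the control pool 2 there were 2, Glycam1 at 3.58 and Ccl3 at 3.17. Without the A-CREB pool 1 there were 2, of which Efcab6 at -1.53 carries a gene name, and without the A-CREB pool 3 there was 1, Nav2 at -2.04. These genes, Trat1 excepted, are named because they were called there and lie outside the rule for naming genes. Without the pools 3 of both groups 7 probe sets were called and 354 were lower at an unadjusted p under 0.05, and without the male pools 1 of both groups 2 were called and 953 were lower.

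**Figure D1:**
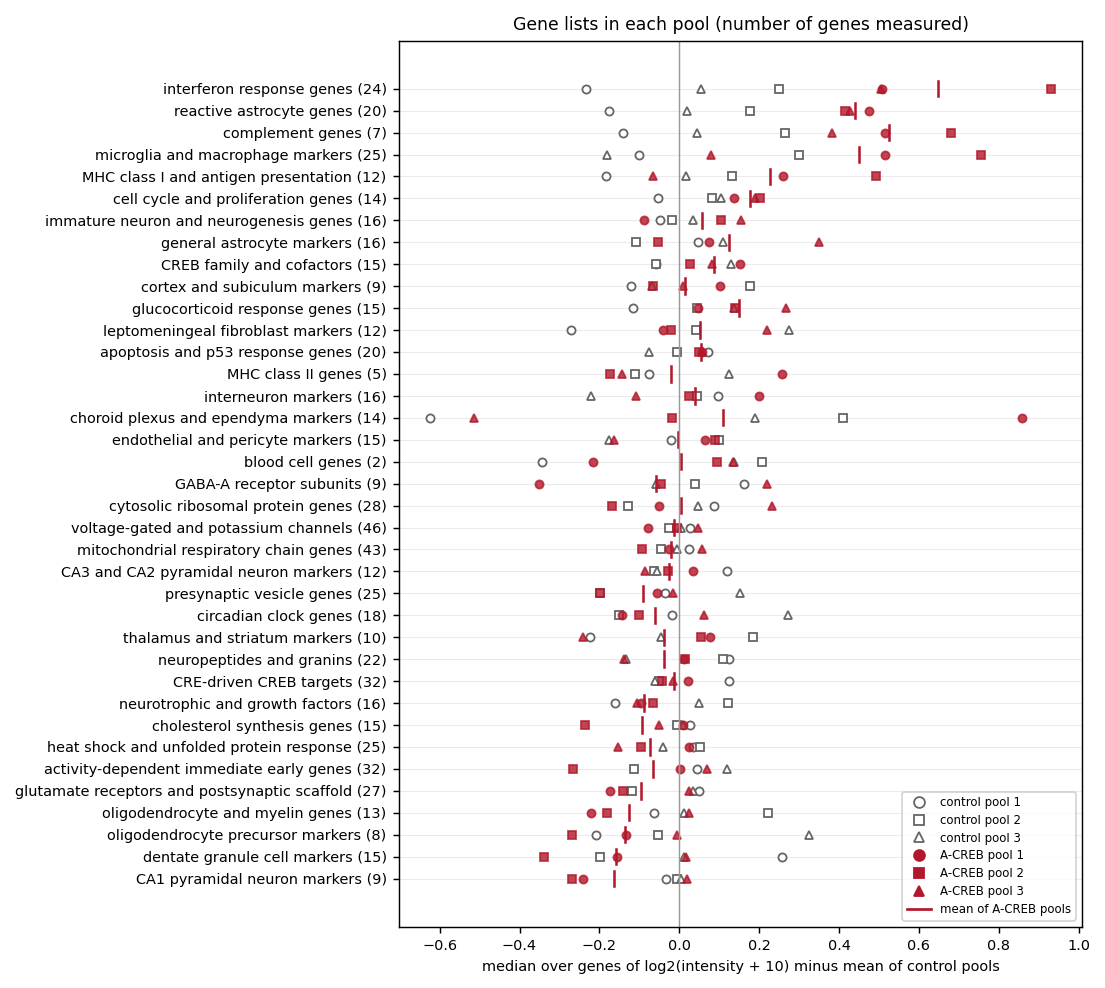
Median over the measured genes of each list (number in brackets) of log2(intensity + 10) minus the mean of the 3 control pools, for each of the 6 pools. Open symbols are control pools, filled symbols A-CREB pools and the bar the mean of the A-CREB pools. The interferon, reactive astrocyte, complement and cell cycle lists have all 3 A-CREB pools above all 3 control pools, the last by a small margin. The CREB target list lies near 0 in every pool.

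The genes that CREB is known to drive were centred near 0. Of the 32 measured genes on a list of CRE-driven CREB targets, none was called, 1 was higher and 3 were lower at an unadjusted p under 0.05, and the pools did not overlap for 3 higher and 4 lower. The list's median difference was -0.07, beside 0.01 over all genes, and its medians in the single A-CREB pools were 0.02, -0.04 and -0.01 against 0.13, -0.05 and -0.06 in the controls. The 3 lower members were Pdyn, Nr4a1 and Penk and the higher 1 was Gadd45b, and Penk is named here because it belongs to that small count. Without the A-CREB pool 2 or the control pool 1 no member was lower at that threshold, without the A-CREB pool 3 it was 1, and without the pools 3 of both groups none was.

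Pdyn encodes prodynorphin, the precursor of the dynorphin opioid peptides. Its intensities were 141, 117 and 121 in the control pools and 103, 75.2 and 82.8 in the A-CREB pools. All 3 A-CREB pools lay below all 3 controls, and the difference was -0.50 (SE 0.19, 95% interval -0.90 to -0.10, limma adjusted p = 1.00). Nr4a1, an orphan nuclear receptor induced by activity, stood at 2316, 2148 and 2153 in the controls and 1844, 1457 and 1418 in A-CREB. Here too the pools did not overlap, with a difference of -0.49 (SE 0.19, adjusted p = 1.00). Penk, the enkephalin precursor, had 692, 435 and 828 against 463, 437 and 455, a difference of -0.47 (SE 0.20), with the control pool 2 as low as the A-CREB pools. Gadd45b, a stress-inducible gene of DNA repair and demethylation, went the other way, with 389, 354 and 335 in the controls and 628, 459.9 and 487 in A-CREB, a difference of 0.53 (SE 0.20).

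The pools of 3 other classical targets overlapped. Fos, the AP-1 subunit, had 2677, 1782 and 2919.8 in the controls and 2427, 1574 and 2751 in A-CREB, and the low value in each group was that of pool 2. Bdnf, the neurotrophin, had 1056, 1069 and 688 against 552, 1116 and 1002, a difference of -0.11 (SE 0.28). Sst, the somatostatin precursor, had 6412, 5853 and 4238 against 5140.5, 5761 and 4535, a difference of -0.08 (SE 0.20). Those of Scg2, the granin secretogranin II, did not overlap, with 5859, 5291 and 5089 against 4874, 4753 and 4797, at a small difference of -0.17 (SE 0.13). These 4 were picked as well-known targets with their values in view. Junb, another AP-1 subunit on the list, is named because its pools did not overlap either. It had 537, 539 and 695 against 395, 363 and 498, a difference of -0.49 (SE 0.26).

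The promoters of 3 of these genes are printed to show the element in targets that did and did not differ between the pools, with the matched letters in capitals. They are the RefSeq windows on GRCm38.p6 from 250 bases before to 50 after the annotated start, 5' to 3' on the gene's strand. Scg2 and Sst hold the full palindromic element TGACGTCA, 68 and 48 bases before the start, and Nr4a1 holds the short form TGACG 4 times, read on the opposite strand as CGTCA.
Scg2 promoter (chr1:79439977-79440276, minus strand): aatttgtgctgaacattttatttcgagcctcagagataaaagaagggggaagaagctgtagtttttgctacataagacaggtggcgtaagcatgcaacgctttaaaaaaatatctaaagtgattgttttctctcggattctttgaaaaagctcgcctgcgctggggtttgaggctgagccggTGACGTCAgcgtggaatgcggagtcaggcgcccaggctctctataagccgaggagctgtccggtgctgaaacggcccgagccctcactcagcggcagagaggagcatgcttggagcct
Sst promoter (chr16:23890795-23891094, minus strand): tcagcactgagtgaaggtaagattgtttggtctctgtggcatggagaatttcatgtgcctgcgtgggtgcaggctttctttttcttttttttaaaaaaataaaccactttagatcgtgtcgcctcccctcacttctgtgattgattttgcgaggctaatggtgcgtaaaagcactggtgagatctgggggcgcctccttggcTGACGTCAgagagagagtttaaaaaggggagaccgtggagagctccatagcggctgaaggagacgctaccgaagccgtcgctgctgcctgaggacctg
Nr4a1 promoter (chr15:101266596-101266895, plus strand): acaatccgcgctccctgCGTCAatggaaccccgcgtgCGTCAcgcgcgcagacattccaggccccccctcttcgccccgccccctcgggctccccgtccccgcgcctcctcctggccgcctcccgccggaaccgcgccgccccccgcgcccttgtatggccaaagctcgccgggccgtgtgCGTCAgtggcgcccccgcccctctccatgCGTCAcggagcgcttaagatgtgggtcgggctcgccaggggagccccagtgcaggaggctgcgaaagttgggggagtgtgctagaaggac

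Measured genes with the full element differed no more often than the rest. The full element, searched on both strands, was in the window of 549 of 27025 genes of the table (2.03%), of which 364 were measured. Of these, 1.10% were higher and 1.10% lower at an unadjusted p under 0.05, below the 1.93% and 1.90% of the 10277 measured genes with a window, and their median difference was 0.03. The 3229 measured genes with the short form and no full one had 1.36% higher and 2.11% lower, with a median of 0.00. A match is a description of the letters in the window and not a measure of CREB binding.

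Immediate early genes overlap with the CREB targets and gave a similar picture. Of 32 measured, 1 was higher and 3 lower at an unadjusted p under 0.05, 2 were higher and 5 lower in pools that did not overlap, and the median was -0.11. Plk2, a kinase that acts in synaptic scaling, had 3284, 3924 and 4496 in the controls and 2961, 3233 and 2936 in A-CREB, a difference of -0.35 (SE 0.16) without overlap. Ier3, an immediate early response gene, was the 1 higher, with 247, 318 and 299 against 366, 438 and 336. Egr1 had 10268, 9277 and 10647 against 11325, 8191 and 8997, and these ranges overlap. Arc, Dusp6 and Junb, named for their lack of overlap, were lower but did not pass an unadjusted p under 0.05. Their differences were -0.59 (SE 0.29), -0.31 (SE 0.17) and -0.49 (SE 0.26), and that of Arc was the lowest of the list.

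Of the 15 measured genes on a list of CREB family members and cofactors, each read by its probe set of highest mean, none passed an unadjusted p under 0.05, and their median was 0.11. The pools did not overlap for 1 of them, the CREB coactivator Crtc1, named for that reason, which had 979, 875 and 1407 in the controls against 835, 858 and 832 in A-CREB, a difference of -0.33 (SE 0.18). Creb1 was read by 5 probe sets, whose differences ran from -0.40 to 0.81. The brightest had 2552, 2063 and 1886 in the controls and 2089.8, 2428 and 3079.6 in A-CREB, which overlap, with a difference of 0.22 (SE 0.22). A dim one at 34.9, 98.5 and 53.7 against 101, 141.5 and 89.9 had the largest difference, 0.81 (SE 0.36), and its pools overlapped as well. It was the 1 Creb1 probe set at an unadjusted p under 0.05, with a limma adjusted p of 1.00. In VP16-CREB at 3 weeks off dox the same probe set had a difference of 2.27 (limma adjusted p = 0.0020). The lowest Creb1 probe set in A-CREB, at -0.40, had 4.26 there, and the rest were not called in that line. Crem, which also gives the CREB antagonist ICER, had 2 probe sets at 0.07 and 0.12. Which Creb1 probe sets can read the transgene's own RNA was not tested, so these values do not check the genotype labels.

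The genes that led the comparison, taken by the rule for naming genes, were 15 probe sets higher and 15 lower in A-CREB. They were chosen by their unadjusted p in this comparison among probe sets with 1 gene symbol, pools that did not overlap, a 1.5-fold difference and a mean of at least 200 in the higher group, which 61 higher and 28 lower ones met. Their values are therefore a description. In bulk tissue, more cells of a type and more RNA per cell cannot be told apart.

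**Figure D2:**
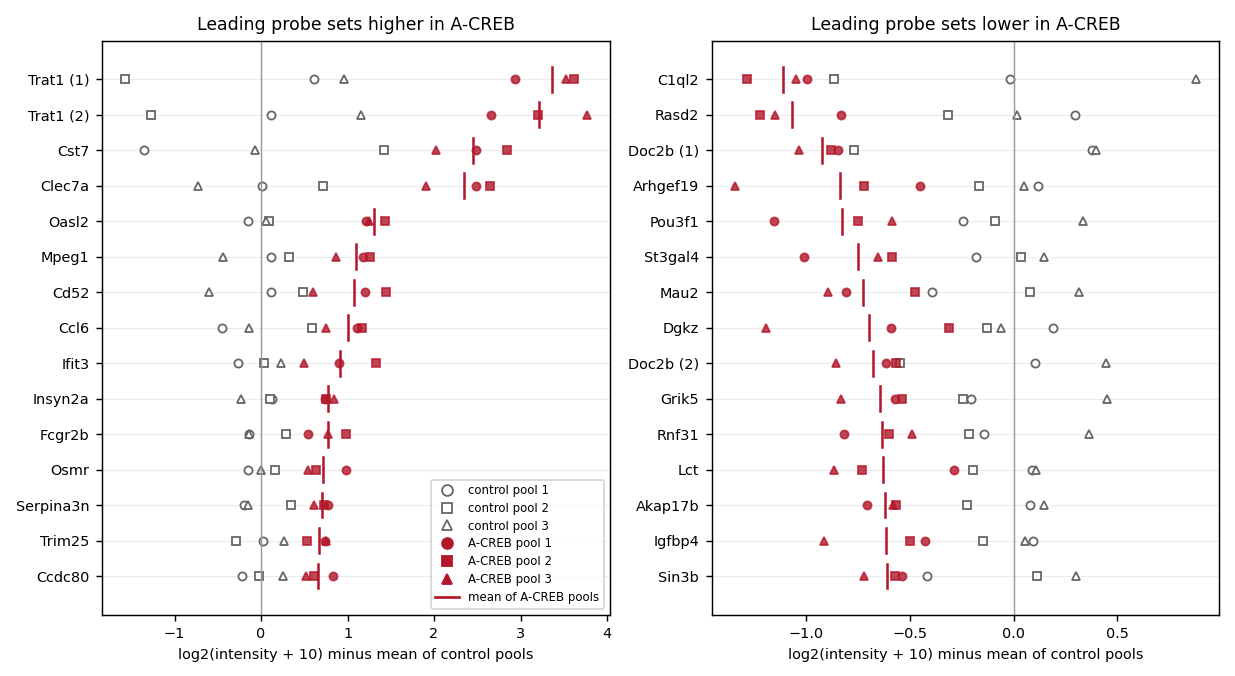
log2(intensity + 10) of the 15 leading probe sets higher (left) and lower (right) in A-CREB, minus the mean of the 3 control pools, for each pool (symbols as in the key, bars mark the mean of the A-CREB pools). Trat1, at 2 probe sets, has the largest differences at 3.36 and 3.21, and the largest on the lower side is C1ql2 at -1.11.

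Trat1 encodes a transmembrane adaptor of the T cell receptor complex. One of its 2 probe sets had 35.8, 7.48 and 84.6 in the controls and 258, 380.5 and 565 in A-CREB, and the other had 41.5, 1.37 and 55.7 against 248, 404 and 378. At both, the lowest A-CREB pool lay well above the highest control pool. All control values lay below the filter on low values (99.1) and all A-CREB values above it. That filter asks for 2 arrays, so the A-CREB pools alone were enough for Trat1 to be tested, which limits its p-values. The differences were 3.21 (SE 0.47, 95% interval 2.20 to 4.22, adjusted p = 0.080) and 3.36 (SE 0.53, adjusted p = 0.105). With control values this low, the size of the difference moved with the pseudocount, from 3.75 and 4.51 with none to 2.76 and 2.79 with 25, and over all alternative settings it was 2.57 to 3.79 and 2.57 to 4.51. Adjusted over 1 probe set per gene, Trat1 and Oasl2 were called, each with a limma adjusted p of 0.038. These p-values rest on the spread over all 16 arrays: when only the 6 arrays of the cohort were fitted, limma's adjusted p was 1.00 for both genes, and with the replicate block it was 0.999. Trat1 was not higher in VP16-CREB, where its differences were -0.25 and -0.44, and the A-CREB difference exceeded the VP16-CREB one by 3.46 (adjusted p = 0.026) and 3.80 (adjusted p = 0.032).

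Genes that define T cells were dim in every pool. Of 12 such genes, chosen after Trat1 was seen, 9 had a probe set of their own, and only Cd8a passed the filter on low values, with 55.0, 12.4 and 97.9 against 69.9, 70.3 and 15.8. Cd3e, a chain of the receptor complex, had 22.8, 18.1 and 14.8 against 12.4, 31.2 and 32.2, and the intensities of the 9 genes summed to 178, 179 and 209 in the controls and 181, 159 and 116 in A-CREB. Among the measured genes next to Trat1 in the RefSeq order, Nectin3 had 6 probe sets from -0.27 to 0.47 and Dzip3 had 5 from -1.16 to -0.16, none at an unadjusted p under 0.05. Of the 8 neighbours looked at, Ift57, the fourth on one side, had 1 probe set at 0.46 with an unadjusted p of 0.0038 (limma adjusted p = 0.862). These neighbours were also chosen after Trat1 was seen.

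Oasl2, an interferon-induced gene of the oligoadenylate synthetase family, varied little within the groups. It had 119.8, 144 and 139.6 in the controls and 324, 380.5 and 333 in A-CREB. Means were 134 ± 12.9 and 346 ± 30.2 (SD, n = 3), and the difference was 1.30 (SE 0.19, 95% interval 0.88 to 1.72, limma adjusted p = 0.080). It lay between 1.19 and 1.37 under the alternative settings.

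Of the other leading genes on the higher side, 6 are known from myeloid cells. Clec7a, a lectin receptor of myeloid cells, had 66.0, 113 and 35.5 in the controls and 410.0, 462 and 272 in A-CREB, a difference of 2.35 (SE 0.45). Cst7, cystatin F, which inhibits lysosomal proteases in phagocytes, had 5.79, 97.5 and 28.3 against 216, 278 and 153, a difference of 2.45 (SE 0.54). In both, the control pool 2 was the highest control and the A-CREB pool 3 the lowest of its group. Mpeg1, a pore-forming protein of macrophages, had 644, 740.4 and 434 against 1349, 1431 and 1090.1, a difference of 1.10 (SE 0.22). Cd52, a leukocyte surface glycoprotein, had 212, 274 and 124 against 458, 543 and 299.5. Fcgr2b, the inhibitory Fc receptor, had 198, 270.1 and 199 against 325, 445 and 384, and the chemokine Ccl6 had 92.9, 202 and 117 against 292, 306 and 226. For each of these the lowest A-CREB pool lay above the highest control.

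Osmr, a subunit of the oncostatin M receptor, had 203, 255 and 227 in the controls and 458, 359 and 334 in A-CREB, a difference of 0.72 (SE 0.16). Serpina3n, a secreted protease inhibitor that marks reactive astrocytes, had 595, 867 and 613 against 1177, 1131 and 1044, a difference of 0.70 (SE 0.18). Ccdc80, a protein of the extracellular matrix, had 377, 433 and 528 against 792, 681 and 640.1. Trim25, a ubiquitin ligase of antiviral signalling, had 189, 149.8 and 224 against 315, 272 and 319. Insyn2a, a protein of inhibitory synapses, had 154, 151 and 118 against 239, 243 and 258, but its other probe set read -0.25.

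Genes induced by interferon had the largest median difference of the 38 lists, which were chosen with earlier results of these data known. Of 24 measured, all 24 had a difference above 0, 13 were higher at an unadjusted p under 0.05 and none lower, and the pools did not overlap for 11, beside 2.07% and 3.93% of all genes. The median difference was 0.57, and the list's medians in the single A-CREB pools were 0.51, 0.93 and 0.51 against -0.23, 0.25 and 0.05 in the controls. With 1 pool left out, 10 to 16 of the 24 were higher and the median was 0.44 to 0.77. With the filter on low values applied to the 6 arrays of the cohort, 23 genes were measured, 12 were higher and the median was 0.52. Without the pools 3 of both groups 14 were higher, and without the pools 1 of both groups 9 were. The control pool 2 and the A-CREB pool 2 had the highest values of their groups.

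Ifit3, an antiviral effector, had 269, 335 and 384 in the controls and 617, 837 and 464 in A-CREB, a difference of 0.91 (SE 0.22). Usp18, the protease that removes the ubiquitin-like modifier ISG15 and restrains the interferon receptor, had 70.8, 133 and 152 against 226, 307 and 199.9, a difference of 1.02 (SE 0.26). Xaf1, a proapoptotic interferon target, had 313, 292 and 346 against 511, 586 and 415, a difference of 0.64 (SE 0.17). These 3 and Oasl2 were chosen from the list by unadjusted p among members whose pools did not overlap, so they are not typical members. Mx1 and Ifit1, named after their values were seen, had the largest differences of the list, 1.47 (SE 0.42) and 1.36 (SE 0.43). Their intensities were low, at 2.39 to 30.1 against 43.5 to 59.3 for Mx1 and 49.6 to 102 against 106 to 370.0 for Ifit1. Every Mx1 value of this cohort lay below the filter on low values (99.1), so Mx1 entered the test through other arrays of the series.

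**Figure D3:**
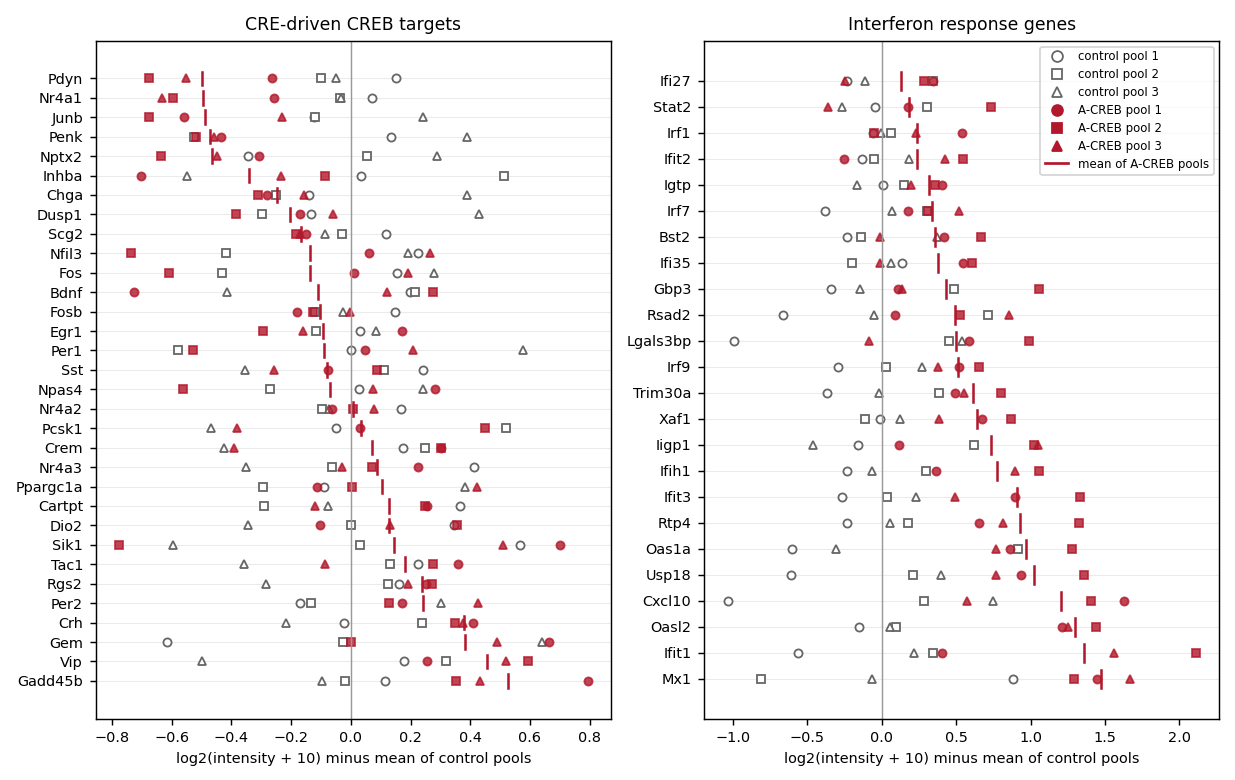
log2(intensity + 10) of each measured gene on the CREB target list (left) and the interferon list (right), minus the mean of the 3 control pools, for each pool. Open symbols are control pools, filled symbols A-CREB pools, and bars mark the mean of the A-CREB pools. CREB targets run from -0.50 to 0.53 around 0, and all 24 interferon genes have a mean above 0, from 0.13 to 1.47.

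The promoters of Ifit3 and Ifit1 are printed because each holds 2 copies of GAAANNGAAA, the core of the interferon-stimulated response element, before its start. Capitals mark the matches, which read on the opposite strand here, and the build and window are as above.
Ifit3 promoter (chr19:34583279-34583578, plus strand): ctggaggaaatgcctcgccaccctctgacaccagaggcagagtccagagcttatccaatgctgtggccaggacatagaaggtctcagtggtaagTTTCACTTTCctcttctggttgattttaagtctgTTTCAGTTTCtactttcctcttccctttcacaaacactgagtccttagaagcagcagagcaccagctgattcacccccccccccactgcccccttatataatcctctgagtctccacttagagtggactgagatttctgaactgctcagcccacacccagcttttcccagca
Ifit1 promoter (chr19:34640639-34640938, plus strand): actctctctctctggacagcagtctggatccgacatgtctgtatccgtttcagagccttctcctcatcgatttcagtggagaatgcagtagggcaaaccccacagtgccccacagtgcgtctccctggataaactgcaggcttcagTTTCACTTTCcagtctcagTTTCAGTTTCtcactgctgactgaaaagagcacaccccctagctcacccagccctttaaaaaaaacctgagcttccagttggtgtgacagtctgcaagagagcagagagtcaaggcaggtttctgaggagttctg

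This motif, which was added after the interferon genes had been seen, was in the windows of 1079 genes of the table (3.99%). Of the 368 measured genes with it, 5.98% were higher and 1.09% lower at an unadjusted p under 0.05, against 1.78% and 1.93% of those without it, and the pools did not overlap for 7.34% higher and 2.99% lower. Without the genes of the interferon list, 4.48% of 357 were higher and 1.12% lower. Of the 19 interferon genes with a window, 11 held the motif, with a median difference of 0.62, and the median of the rest was 0.44.

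Microglia, the resident macrophages of the brain, are read by a list of which 25 genes were measured. Of these, 23 had a difference above 0, 9 were higher at an unadjusted p under 0.05 and none lower, and the pools of 6 did not overlap. The median was 0.42, with 0.51, 0.75 and 0.08 in the A-CREB pools and -0.10, 0.30 and -0.18 in the controls, so the control pool 2 lay above the A-CREB pool 3. The summed intensity of the list was 20629 to 24929.5 in the controls and 24365 to 32603 in A-CREB. The count was 6 when only the 6 arrays of the cohort were fitted. Without the A-CREB pool 2 it was 5, without the A-CREB pool 3 it was 15, and without the pools 3 of both groups it was 13.

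The 9 were Clec7a, Cst7, Cd52, Ctss, Ptprc, Ly86, Tyrobp, Trem2 and Cd14. Ctss, the lysosomal protease cathepsin S, had 3488, 3388 and 2209.8 in the controls and 4719, 5014 and 4134 in A-CREB, a difference of 0.63 (SE 0.18) without overlap. Genes of resting microglia, picked for that role after their values were seen, overlapped between the groups, as did most genes of the list. Whether genes of resting microglia differ from the rest of the list was not tested. The purinergic receptor P2ry12 had 955, 1623 and 434 against 688, 1606 and 888, and Tmem119 had 375, 468 and 479.8 against 427, 477 and 222. Cx3cr1, the fractalkine receptor, had 921, 1409 and 847 against 1313, 1379 and 842, and its difference was 0.16 (SE 0.24).

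The median of the reactive astrocyte genes was alike in the 3 A-CREB pools and above that of each control pool. Of 20 measured, none was called, 7 were higher at an unadjusted p under 0.05 and none lower, the pools of 7 did not overlap, and the median was 0.44. The A-CREB pools had medians of 0.48, 0.42 and 0.43 and the controls -0.17, 0.18 and 0.02. The count was 3 without the A-CREB pool 1 or without the pools 1 of both groups, and 4 without the control pool 1. With the filter on low values applied to the 6 arrays of the cohort, 17 genes were measured, 8 were higher and the median was 0.45. Besides Osmr and Serpina3n, Gbp2, a guanylate-binding protein, had 154, 205 and 137 against 265, 283 and 255, and S1pr3, a sphingosine phosphate receptor, had 670.0, 756 and 719 against 1469, 1034 and 929. Gfap, the intermediate filament that marks astrocytes, had 1899.7, 3257 and 3276 against 3814, 4043 and 3227.5, and these overlap at a difference of 0.43 (SE 0.24). The 16 general astrocyte markers had none higher or lower at that threshold and a median of 0.13.

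Complement and antigen presentation followed in part, and the complement list overlaps in membership with the microglia list, so the lists are not independent. The 7 measured complement genes were all above 0, with a median of 0.43 and 3 higher at an unadjusted p under 0.05, namely Serping1, C3ar1 and Itgb2. None was without the A-CREB pool 1, without the control pool 1 or when only the 6 arrays of the cohort were fitted, and 1 was without the A-CREB pool 2 or with the replicate block. C1qa, which starts the classical cascade, had 1396, 2021 and 1489 against 2119.7, 2652 and 1633, and these overlap. Of 12 genes of MHC class I presentation, 2 were higher, H2-D1 among them at 941, 1317 and 1004 against 1930.4, 1972 and 1017, where the A-CREB pool 3 lay within the range of the controls. The 5 MHC class II genes had a median of 0.06 and none higher or lower. The lists of leptomeningeal, choroid plexus and vascular (endothelial and pericyte) markers had no member at that threshold and medians of 0.08, 0.02 and 0.01. The choroid plexus list swung between pools of 1 genotype, from -0.62 to 0.41 in the controls and from -0.51 to 0.86 in A-CREB. The part of these swings and of the 18S signal in the glial differences was not tested, beyond the counts without single pools given above.

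Among the 15 leading probe sets on the lower side, C1ql2 had the largest difference. This gene, a secreted synaptic organiser of dentate granule cells, had 670.0, 367 and 1255 in the controls and 335, 272 and 323 in A-CREB, a difference of -1.11 (SE 0.31). The control pools were far apart, and the lowest of them was close to the highest A-CREB pool. Rasd2, a small GTPase of the Ras family, had 383, 247 and 314 against 169.9, 127 and 134, a difference of -1.07 (SE 0.28). Doc2b, a calcium sensor of vesicle release, had 1933, 867 and 1959 against 822, 802 and 720.3 at 1 probe set and a difference of -0.68 (SE 0.22) at the other. Arhgef19, a guanine nucleotide exchange factor, had 226, 184 and 215 against 149, 122 and 75.7, a difference of -0.84 (SE 0.21).

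Grik5, a kainate receptor subunit, had 875, 851 and 1383 in the controls and 677, 692 and 563 in A-CREB, a difference of -0.65 (SE 0.20). Dgkz, the zeta diacylglycerol kinase, had 1587, 1269 and 1332 against 919, 1117 and 601, a difference of -0.70 (SE 0.22). Lct, the lactase gene that marks dentate granule cells, had 987, 807 and 999 against 757, 554 and 503, a difference of -0.63 (SE 0.17). Igfbp4, an insulin-like growth factor binding protein, had 1184, 1003 and 1154 against 822, 784 and 585, and its 5 other probe sets read -0.51 to -0.30. The POU factor Pou3f1 and the sialyltransferase St3gal4 had differences of -0.83 and -0.75. The cohesin loader Mau2, the ubiquitin ligase Rnf31, the anchoring protein gene Akap17b and the corepressor gene Sin3b had differences of -0.61 to -0.73. Over the 28 leading genes, 12 had other measured probe sets, and 17 of these 22 had the same sign, with Akap17b at 0.28, Insyn2a at -0.25 and 3 of the 4 of Sin3b on the other side.

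Markers of dentate granule cells, the input neurons of the hippocampus, had 3 of 15 measured genes lower at an unadjusted p under 0.05 (Lct, C1ql2 and Stxbp6) and none higher, with 2 that did not overlap, beside 1.88% and 3.68% of all genes. The median was -0.16, but the medians of the pools were interleaved, at 0.26, -0.20 and 0.01 in the controls and -0.16, -0.34 and 0.02 in A-CREB. Without the control pool 2 the count was 5 and the median -0.36, while the median was -0.0647 without the A-CREB pool 2 and -0.0727 without the control pool 1, with a count of 2 in each. In the 6 arrays less the A-CREB pool 3 no member was lower. Prox1, the transcription factor that defines these cells, had 201, 241 and 244 against 180.3, 196 and 244, a difference of -0.15 (SE 0.15), and Calb1, the calcium buffer calbindin, had 5881, 4827 and 4751 against 4599, 5099 and 6936. Of 9 CA1 pyramidal neuron markers, 2 were lower, of which Wfs1, a protein of the endoplasmic reticulum, had 2203, 2172 and 3591 against 2053, 2142 and 1632. The lists for CA3 and CA2 neurons and interneurons had no member at that threshold in either direction.

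Synaptic and channel genes had few members past the threshold. Of 27 glutamate receptor and scaffold genes, 21 had a difference below 0, 2 were lower at an unadjusted p under 0.05 (Grik5 and Grm3) and none higher, the pools of 3 did not overlap on the lower side, and the median was -0.12. Of 46 channel genes 1 was lower, Kcnip2, a subunit of A-type potassium channels, at 2525, 2487 and 2750.4 against 2344, 2027 and 1539, and the median was -0.01. The 25 presynaptic vesicle genes had none in either direction. Of 16 genes of immature neurons 1 was lower, the tubulin Tubb3, with 1862, 1659.5 and 2953 against 1482, 1504 and 1556. The 20 measured genes of apoptosis and the p53 response had 1 higher, Gadd45b, and a median of 0.06. The respiratory chain (43 genes), ribosomal protein (28), myelin (13) and circadian clock (18) lists had none at that threshold in either direction, with medians of -0.01, 0.00, -0.15 and -0.06. All 13 myelin genes had a difference below 0, from -0.43 to -0.01, and the pools of 1 of them did not overlap.

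The same genes were then read beside VP16-CREB, whose mice and control pools were separate. The A-CREB difference and the VP16-CREB difference, 3 weeks off dox, were set against each other in the limma fit, and they differed for 240 of 27044 probe sets (0.887%), 224 with the lower value in A-CREB and 16 with the higher. Of the 886 probe sets called higher in VP16-CREB, 648 (73.1%) were above 0 in A-CREB, with a median of 0.17 against 1.26 in VP16-CREB, and 150 (16.9%) were higher at an unadjusted p under 0.05, beside 2.29% of all probe sets. Of the 176 called lower in VP16-CREB, 133 (75.6%) were below 0 in A-CREB, with a median of -0.11 against -0.84, and 16 (9.09%) were lower at that threshold, beside 2.04%. Both sets were chosen by their VP16-CREB values, so their medians in that line are large by choice. The 2 differences of a probe set share 1 SE in the fit, so this choice also favours a small SE in A-CREB. The shares at an unadjusted p under 0.05 are therefore not like for like with those of all probe sets.

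**Figure D4:**
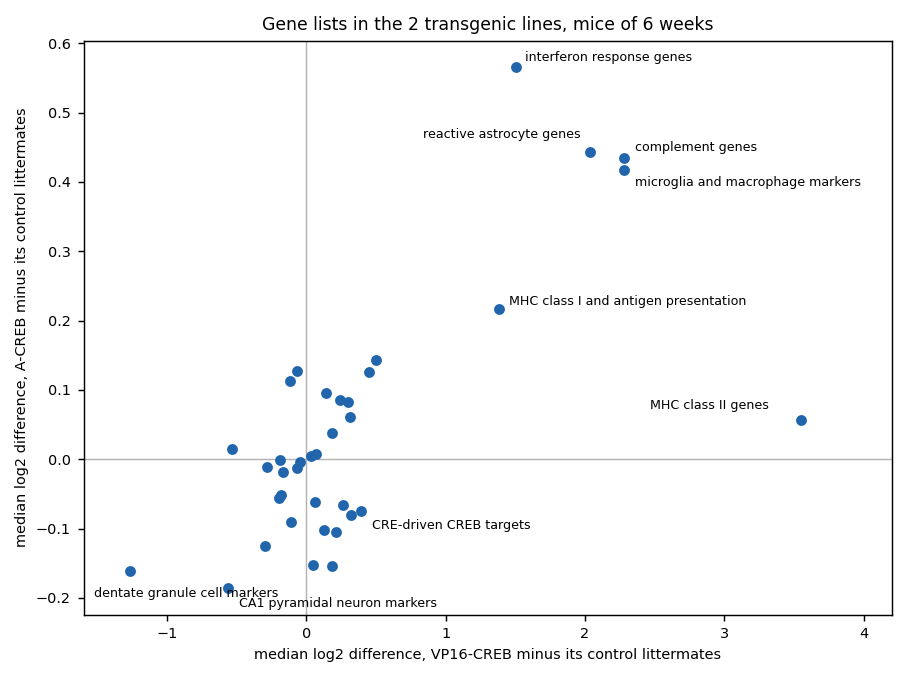
Median log2 difference of each gene list in VP16-CREB at 3 weeks off dox (horizontal) and in A-CREB (vertical), each minus its own control littermates. Each point is 1 list, and the 2 axes differ in scale. The interferon, astrocyte, complement and microglia lists are at the upper right, with VP16-CREB medians up to 2.28 and A-CREB medians of 0.42 to 0.57, MHC class II is at 3.55 and 0.06, and CREB targets are at 0.39 and -0.07.

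The lists differed in how much of the VP16-CREB difference A-CREB showed. The microglia list had a median of 0.42 in A-CREB and 2.28 in VP16-CREB, and the 2 differences were unlike at an adjusted p under 0.05 for 17 of its 25 genes. For the interferon list, at 0.57 and 1.501, this was so for 4 of 24, and for MHC class II, at 0.06 and 3.55, for 4 of 5. CREB targets had -0.07 and 0.39, with 4 of 32 unlike. Pdyn was the clearest of these, at -0.50 in A-CREB and 3.03 in VP16-CREB, a difference of -3.53 between them (limma adjusted p = 5.1e-05). Dentate markers had -0.16 and -1.27, and C1ql2 was lower in both lines, at -1.11 and -1.78.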

How the data were processed

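The 6 arrays were 3 A-CREB and 3 control littermate pools, and the other 10 arrays of the series entered the fit so that 6 group coefficients shared 1 estimate of the spread. The deposited values are linear intensities, which the authors made with MAS5 (version not given in the sources used here), as the submitters' processing notes state. The trimmed mean, without the 2% at each end, was 500 on each array, so no further scaling was done. MAS5 subtracts a mismatch signal, which makes dim values noisy. For arrays, their number limits the precision.

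After removal of 64 Affymetrix controls from the array's probe sets, 45037 were left, and the 27044 above the median of all values (99.1) on at least 2 arrays entered the test. A pseudocount of 10 was added, and log2 values were tested with limma 3.58.1 (lmFit and eBayes, two-sided, 10 residual and 3.44 prior degrees of freedom) in R 4.3.3, with Benjamini-Hochberg adjustment over all 27044. The labels do not say that the pools came from separate litters, so p-values measure the spread between these pools. Of all probe sets, 34945 had 1 gene symbol in GEO's platform annotation, 932 several and 9160 none, and 34741 matched the RefSeq gene table (GRCm38.p6), which gave names and gene order only. Genes in lists stand for their probe set of highest mean. The members and the 38 lists were chosen with earlier results of these data known.

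Named genes were up to 15 probe sets in each direction (called, or else in order of unadjusted p as the report describes), up to 4 members of each list, and every measured probe set of Creb1, Crem, Atf1 (none measured) and Pdyn. List members without overlap between the pools and with the lowest unadjusted p under 0.05 came first, then those of highest mean. The alternatives were 2 other pseudocounts, 3 other filters, quantile or median scaling, only the 6 arrays, a variance trend with robust priors, array weights, 1 probe set per gene, pools left out and a replicate block. The method was tested on simulated data. Figures were drawn with matplotlib 3.10.9 under Python 3.11.15.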

Additional observations from a re-analysis of the deposited data

Results flagged for a closer look

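The A-CREB difference and the VP16-CREB difference at 3 weeks off dox were compared at 83 probe sets. These were the 30 leading ones, those of Creb1, Crem and Pdyn, and 1 for each list gene named above except Junb, Arc and Dusp6. For 28 of the 83 the 2 differences were unlike by their contrast in the limma fit, at an adjusted p under 0.05 (0.887% of all probe sets). Many of the 83 were chosen by their A-CREB values, which enter this contrast, and the lists with earlier results known. The 2 shares can therefore not be compared. Values here are the A-CREB log2 difference minus the VP16-CREB log2 difference, and 3 of the 28 were above 0. The 2 probe sets of Trat1 had 3.46 and 3.80, and Prox1 had 1.05, with differences below 0 in both lines (-0.15 in A-CREB and -1.20 in VP16-CREB).

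For 22 probe sets the differences were above 0 in both lines and smaller in A-CREB. Among leading genes these were Cst7 (-4.63), Cd52 (-3.20), Clec7a (-2.94), Ccl6 (-2.56), Fcgr2b (-2.45), Serpina3n (-2.25), Mpeg1 (-1.88), Osmr (-1.73) and Oasl2 (-1.42). Of the other microglial genes they were Trem2 (-2.25), Ly86 (-2.09), Ptprc (-2.01), Tyrobp (-1.91), Cd14 (-1.69) and Ctss (-1.42), and of the astrocyte genes Gfap (-2.33) and S1pr3 (-1.77). The complement genes C1qa (-2.12), C3ar1 (-1.74) and Serping1 (-1.33), the MHC gene H2-D1 (-1.63) and the immediate early gene Ier3 (-1.12) made up the rest. Pdyn (-3.53) and Arhgef19 (-1.45) had differences below 0 in A-CREB and above 0 in VP16-CREB, and the Arhgef19 difference in VP16-CREB, 0.61, was not called. A Creb1 probe set had -4.65, with 4.26 in VP16-CREB and -0.40 in A-CREB, and which transgene RNA it reads was not tested.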

How the results depend on the processing

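Of 21 alternative settings (2 of them, which leave out A-CREB pool 3 alone in the 6 arrays or pool 3 of both groups, were added after the data were seen), none gave more than 7 calls. There were 3 calls with no pseudocount, 2 with a pseudocount of 25, 2 with 1 probe set per gene, 0 to 4 with 1 pool left out, 2 without pool 1 of both groups and 7 without pool 3 of both. Probe sets higher at an unadjusted p under 0.05 were 401 when only the 6 arrays were fitted, and 568 to 843 with 1 pool left out. Those lower were 262 with the 6 arrays, 270.0 with the 6 arrays less A-CREB pool 3, 345 with array weights, 427 to 821 with 1 pool left out, 953 without pool 1 of both and 354 without pool 3 of both. Differences between the lines were called at 138 probe sets without a filter, 404 with array weights and 159 to 218 with 1 pool left out. The deviations of same-numbered pools had correlations of -0.05, 0.41 and 0.27, which do not settle whether these pools were paired. Pool 1 was male in both groups, and pool 3 had the high 18S signal in both. The replicate block in the 6 arrays gave no call in limma. With it 556 probe sets were higher and 398 lower at an unadjusted p under 0.05, against 401 and 262 without it.

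The median of the CREB targets was -0.0739 to 0.0106 with 1 pool left out and 0.0096 without pool 1 of both, that of dentate markers -0.36 to -0.0647, and that of reactive astrocyte genes 0.32 to 0.52, with 0.41 at a pseudocount of 25, 0.57 with array weights, 0.31 without pool 1 of both, 0.52 with the 6 arrays less A-CREB pool 3 and 0.52 without pool 3 of both. The interferon, microglia and complement medians stayed above 0 under all 21 settings, at 0.44 to 0.77, 0.27 to 0.60 and 0.29 to 0.56. Of the 30 leading probe sets none reversed under the settings that tested it. They were chosen for pools that did not overlap, so leaving out a pool or changing the pseudocount could not reverse them. Creb1 and Crem were named whatever their overlap, and 2 probe sets of each reversed. One Creb1 probe set, -0.01 as reported, read 0.0025 at a pseudocount of 25, 0.28 with array weights, 0.24 without pool 3 of both, -0.49 to 0.71 with 1 pool left out and 0.71 with the 6 arrays less A-CREB pool 3, and another, at 0.22, read -0.0265 without pool 3 of both and 0.35 without A-CREB pool 1. The 2 Crem probe sets read -0.29 to 0.39 and -0.14 to 0.30 with 1 pool left out, and the former -0.0117 with array weights and -0.15 without pool 3 of both. The cause was not tested for any of these. With 3 pools a group and a median 95% half-width of 0.47, smaller differences at a typical probe set could not be told from 0.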

Other observations

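Some values belong to lists not described above. Plin4, a lipid droplet protein on the glucocorticoid list, had 62.4, 58.6 and 43.1 in the control pools and 125, 72.0 and 112 in the A-CREB pools, a difference of 0.79 (SE 0.28), and it was the 1 higher member of 15. Sdf2l1, a chaperone cofactor of the endoplasmic reticulum, had 148, 229 and 195 against 92.7, 147 and 127, a difference of -0.61 (SE 0.23), the 1 lower member of 25 on the heat shock and unfolded protein list. The 14 cell cycle genes had medians of 0.14, 0.20 and 0.19 in the A-CREB pools and -0.05, 0.08 and 0.10 in the controls. These medians did not overlap between the groups, but none of the genes differed at an unadjusted p under 0.05.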
